A study of Mus musculus with 4 samples.

Results

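Single-cell transcriptomes of mouse embryonic stem cells (mESC) were compared between 2 pairs of sequencing libraries, libraries 1 and 2 on one side and libraries 3 and 4 on the other, as given by the number that ends each cell barcode. Cells were kept when their UMIs and detected genes were each no lower than the library mean less 1 SD and at most 10% of their UMIs were mitochondrial. Of 41142 barcodes, 31989 cells were kept, 16632 in libraries 1 and 2 and 15357 in libraries 3 and 4. The members are the autosomal genes that parted the pairs. A gene parted them when its level in the lower library of one pair was at least 1.5 times its level in the higher library of the other, and it had at least 200 counts in a library. That ratio is called the parting fold here. Of 12250 autosomal genes with enough counts, 456 parted the pairs (3.72%). Of these, 380 (3.1%) were higher in libraries 3 and 4 and 76 (0.62%) were higher in libraries 1 and 2.

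The study sequenced E14tg2a.4 mESC, a feeder-independent line, as WT and as Srrm2 hKO, which stands for heterozygous knockout. The hKO cells carry a gene-trap insertion that truncates 1 allele of Srrm2, and they are a single line made in E14tg2a.4, so effects of the insertion and of the line cannot be told apart. Both groups were grown with LIF, and the labels give 24 h or 72 h in serum-free medium without saying which time belongs to which sample, whereas the study's methods give a single time between these for all of the single-cell cultures. There were 2 samples of each group from independent experiments, and nothing in the labels or files ties a library number to WT or to Srrm2 hKO. The libraries are therefore named by number, each is 1 sample, and no replicate mean, SD or p-value is given.

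Embryonic stem cells in culture move between a naive state, held by LIF, and a formative state in which Fgf5 and Pou3f1 come on. A few leave pluripotency and spread, with keratins and a contractile cytoskeleton whose genes are driven by serum response factor (SRF) and by YAP. Imprinted genes are read from only 1 parental allele, chosen by DNA methylation laid down in the germ line, and that methylation can be lost or gained in cultured stem cells.

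Levels are unique molecular identifiers (UMIs) of a gene per 1000000 UMIs of the library's cells (CPM). Intervals are exact 95% Poisson intervals for levels, exact conditional intervals for ratios and Clopper-Pearson intervals for shares of cells, and they cover counting error only. The targeted gene, Srrm2, stood at 387, 533, 238 and 356 CPM in libraries 1 to 4. The lowest of libraries 1 and 2 was 1.09 times the highest of libraries 3 and 4, so Srrm2 kept an order between the pairs but did not part them. Pou5f1, Sox2, Nanog and Klf4, which define pluripotency, did not part the pairs either. Nanog was at 154, 130, 103 and 61.9 CPM, a gap of 1.26-fold, and Pou5f1 was between 663 and 847 CPM in every library. Sox2 had a gap of 1.33-fold, also higher in libraries 1 and 2, and for Klf4 the pairs overlapped. Kept UMIs per library numbered 166839268 to 200180473 and median UMIs per cell 18378 to 21898, with the deeper library of each pair being 2 and 4. Median mitochondrial shares were 5.40%, 4.10%, 4.51% and 3.51%, and their part in the results was not tested. Between 16 and 47 cell barcodes were shared by any 2 libraries.

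A second difference ran across the pairs. The median absolute log2 ratio over the counted genes was 0.20 between libraries 1 and 3 and 0.17 between 2 and 4, but 0.35 between 1 and 2 and 0.31 between 3 and 4. Library 1 was thus nearer to library 3, and library 2 to library 4, than to its own partner. The share of cells with at least 5 UMIs of Fgf5 and Pou3f1 followed this second difference in part, at 1.97%, 15.3%, 9.93% and 35.6%. Cells with at least 5 UMIs of Krt8 and Krt18, by contrast, followed the pairs, at 1.43% and 1.30% in libraries 1 and 2 and 10.8% and 9.49% in libraries 3 and 4. These shares rest on raw UMIs, and both classes of cells were deeper than the rest. Median UMIs were 26481 to 30269 in keratin-positive and 23371 to 26728 in formative-positive cells, against 18258 to 21448 in cells of neither class.

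Because both kinds of cell could carry genes with them, every gene was also measured in gated cells, those with under 5 UMIs of each pair of genes. The gate kept 97.5%, 84.3%, 84.0% and 61.5% of the kept cells of libraries 1 to 4. In gated cells 128 of 11591 genes parted the pairs (1.1%), 88 of them (0.759%) higher in libraries 3 and 4 and 40 (0.345%) higher in libraries 1 and 2. Of the 380 genes higher in libraries 3 and 4, 204 still had enough counts after the gate. Of those 204, 76 still parted the pairs, 104 kept the order below 1.5-fold, and in 24 the pairs overlapped. Of the 76 genes higher in libraries 1 and 2, 75 had enough counts, 34 still parted the pairs and 41 kept the order, with none overlapping. With a gate at 0 UMIs of these 4 genes, which left 1692 cells in library 4, 26 (0.241%) and 30 (0.278%) of 10789 genes parted the pairs, 22 and 20 of them being among the 380 and the 76.

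**Figure D1:**
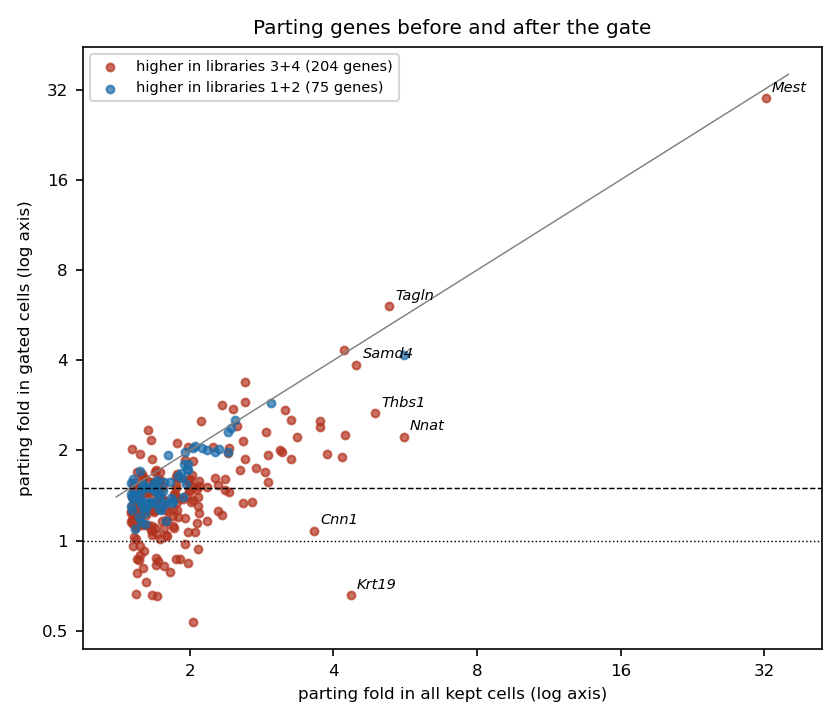
Parting folds (log axes) in all kept cells against gated cells, for the parting genes with enough counts in both; the grey line marks equal folds, the dashed line 1.5 and the dotted line 1, below which the pairs overlap. Mest lies alone near the line at 32.3 and 30.0, whereas Krt19 lies at 4.35 and 0.66.

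The gene that parted the libraries most was Mest, a paternally expressed imprinted gene of mesoderm that encodes a predicted hydrolase. Mest lies at chromosome 6, 30723547 to 30748465, plus strand (GRCm38). Its promoters are shown because imprinting works through DNA methylation, which falls on CpG sites, and the starts that RefSeq lists include 1 with few and 1 with more CpG. Whether these sites control Mest was not tested. Sox21, a transcription factor gene among those higher in libraries 1 and 2, is shown for comparison. Each run covers 250 bases before to 50 after the transcription start (GRCm38.p6, plus strand for Mest and minus strand for Sox21), with CpG sites in capitals.
Mest, chr6:30733256-30733555, 8 CpG: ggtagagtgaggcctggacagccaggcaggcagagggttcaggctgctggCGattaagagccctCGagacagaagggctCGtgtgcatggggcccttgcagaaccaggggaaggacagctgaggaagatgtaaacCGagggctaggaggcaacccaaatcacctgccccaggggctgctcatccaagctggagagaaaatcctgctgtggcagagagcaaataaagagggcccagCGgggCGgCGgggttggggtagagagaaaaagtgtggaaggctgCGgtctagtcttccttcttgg
Mest, chr6:30737800-30738099, 17 CpG: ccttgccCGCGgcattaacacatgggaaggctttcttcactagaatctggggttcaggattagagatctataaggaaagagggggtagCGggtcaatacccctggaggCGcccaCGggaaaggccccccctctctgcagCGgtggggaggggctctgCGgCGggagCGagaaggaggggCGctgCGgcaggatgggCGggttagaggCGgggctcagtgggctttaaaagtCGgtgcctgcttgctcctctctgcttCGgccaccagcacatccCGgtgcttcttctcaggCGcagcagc
Sox21, chr14:118236981-118237280, 22 CpG: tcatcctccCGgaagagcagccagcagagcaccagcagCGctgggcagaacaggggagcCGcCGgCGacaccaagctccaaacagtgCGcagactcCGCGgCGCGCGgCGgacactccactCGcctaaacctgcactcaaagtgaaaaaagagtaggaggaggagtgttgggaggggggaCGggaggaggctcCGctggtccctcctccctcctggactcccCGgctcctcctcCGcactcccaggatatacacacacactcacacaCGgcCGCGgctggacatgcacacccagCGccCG
The reads come from the 3′ ends of transcripts and do not show which start was used, and methylation was not measured. RefSeq promoters were matched to 292 of the 380 genes and 54 of the 76, under 80% of each set, so a comparison of CpG or motif content between the sets is void.

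Mest was at 0.965, 1.16, 37.4 and 40.6 CPM across libraries 1 to 4, with intervals of 0.822 to 1.13, 1.01 to 1.32, 36.5 to 38.3 and 39.6 to 41.5 CPM. The levels within each pair lay close together and the pairs were far apart, with a parting fold of 32.3 (28.3 to 37.0). In gated cells the levels were 0.879, 1.17, 35.0 and 37.6 CPM and the parting fold 30.0, and with the gate at 0 UMIs it was 25.7. After each cell was thinned to 5000 UMIs, 0.394%, 0.529%, 14.9% and 17.2% of cells held a Mest UMI, against 1.48%, 1.81%, 46.2% and 51.2% before thinning. If the same UMIs had been spread evenly over the thinned cells, 0.442%, 0.551%, 16.02% and 18.2% would have held one. In libraries 3 and 4 the shares had intervals of 14.2% to 15.7% and 16.3% to 18.0%, just below an even spread. At so few UMIs per thinned cell, a share near that of an even spread does not show that all cells held the transcript. In libraries 1 and 2 the 161 and 232 Mest UMIs lay in 120 and 154 cells, with at most 5 in a cell, and only 0 and 2 of them were on barcodes also found in libraries 3 or 4. Empty droplets were not analysed here, and the part of free RNA in these low counts was not tested.

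Of the genes beside Mest only 1 parted the pairs, by a small fold. Copg2, which overlaps the 3′ end of Mest on the other strand, was at 28.8, 19.7, 25.6 and 19.4 CPM, with overlapping pairs. Cep41, Tmem209 and Klhdc10 on the one side and Mkln1 and Podxl on the other also overlapped. The exception was Lncpint, a noncoding RNA gene, at 0.617, 0.594, 0.934 and 1.17 CPM with a parting fold of 1.51. These neighbours were looked up after the values of Mest were known.

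Some other paternally expressed imprinted genes were higher in libraries 3 and 4 too. Of 17 counted members of that list, 5 parted the pairs in all kept cells, namely Mest, Igf2, Dlk1, Nnat and Sgce, which is 5 of 17 against the 3.1% of all counted genes. A gene's log2 ratio is the median of the 4 ratios of a library of 3 and 4 to a library of 1 and 2, and carries no error estimate. The list's median log2 ratio was 0.52, against 0.04 for all counted genes. In gated cells 3 of 14 parted the pairs (Mest, Dlk1 and Nnat), against 0.759% of all genes counted there, and the median was 0.14, against 0.02. Nnat, which encodes a small membrane proteolipid of the developing brain, was at 0.491, 0.569, 3.20 and 3.56 CPM, 5.61-fold, and at 0.356, 0.556, 1.24 and 2.53 in gated cells, 2.22-fold. Dlk1, a Notch-family ligand of progenitor cells, was at 0.545, 1.199, 3.13 and 3.43 CPM, 2.61-fold, and its parting fold was 3.39 in gated cells. Igf2, an embryonic growth factor, was at 0.228, 0.290, 3.48 and 1.71 CPM, but had too few counts after the gate.

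Snrpn, a paternally expressed gene of the spliceosome, and Kcnq1ot1, a silencing RNA, did not part the pairs. Snrpn was at 102, 135, 94.3 and 141 CPM and Kcnq1ot1 at 168, 227, 162 and 212 CPM, so that for both libraries 2 and 4 stood above 1 and 3. Of the 10 counted maternally expressed genes, 0 parted the pairs in all kept cells or in gated cells, and 2 were higher in libraries 3 and 4 by any gap, a share near the 17.2% of all counted genes. These 2 were Cdkn1c, a Cdk inhibitor, at 20.6, 41.1, 48.6 and 50.9 CPM and Grb10, an adaptor that dampens insulin signalling, at 24.0, 21.5, 36.2 and 34.4 CPM. H19, the maternally expressed noncoding RNA beside Igf2, had 3, 18, 31 and 185 counts, too few to count.

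Zdbf2, an imprinted gene outside the list that was picked out after its values were seen, parted the pairs, as did the gene annotated next to it. It lies at chromosome 1, 63273265 to 63314576, and was at 28.3, 38.3, 99.9 and 117 CPM, 2.61-fold. Platr12, a noncoding RNA gene 65298 bases upstream on the same strand, was at 0.240, 0.405, 1.71 and 2.32 CPM, 4.21-fold. RefSeq also places a start of Zdbf2 at the start of Platr12 (promoter window chr1:63200108-63200407), and whether the Platr12 counts come from a longer Zdbf2 transcript was not tested. In gated cells their parting folds were 2.90 and 4.34, and with the gate at 0 UMIs 3.18 and 4.54. The next counted genes did not part the pairs. Eef1b2, before Platr12, was between 2235 and 2605 CPM with overlapping pairs, and Adam23, after Zdbf2, had an order in the other direction, 1.25-fold.

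**Figure D2:**
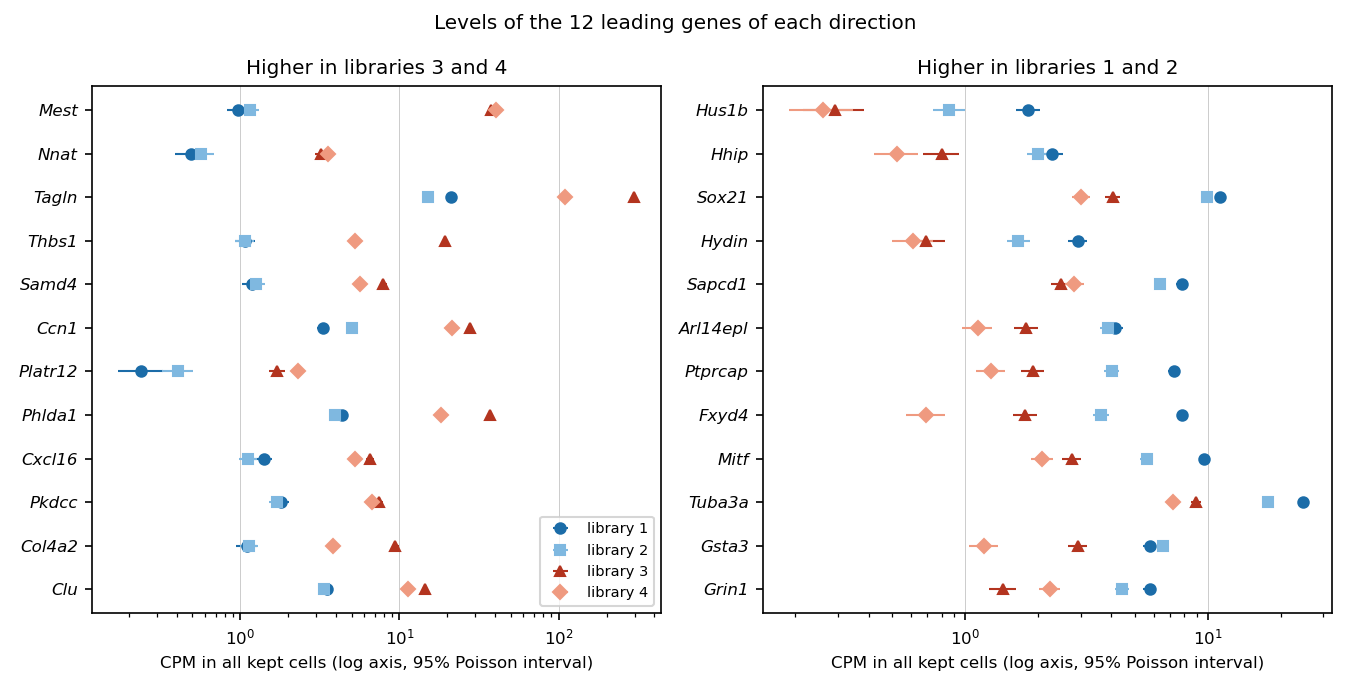
Levels in CPM (log axis) of the 12 leading genes of each direction in the 4 libraries, with 95% Poisson intervals. On the left libraries 3 and 4 lie to the right of libraries 1 and 2 for every gene, most of all for Mest, and libraries 3 and 4 differ from each other for Tagln, Thbs1 and Col4a2.

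Genes of the contractile cytoskeleton made up the largest listed group of genes higher in libraries 3 and 4. Of 16 counted contractile genes and SRF targets, 9 parted the pairs, against 3.1% of all counted genes. By any gap 12 were higher in libraries 3 and 4, against 17.2% of all counted genes. The list's median log2 ratio was 1.22, against 0.04 for all counted genes. Tagln, an actin-binding protein of smooth muscle, was at 21.1, 15.0, 300 and 110 CPM, 5.22-fold. Acta2, smooth muscle actin, was at 4.32, 2.90, 123 and 13.7 CPM, 3.17-fold, so that library 3 stood far above library 4. Actg1, a cytoskeletal actin of all cells, was at 761, 726, 1780 and 1511 CPM, 1.99-fold, and 1.48-fold in gated cells.

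In gated cells the group shrank to 2 of 14 genes, Tagln and Acta2, against 0.759% of all genes counted there, with a list median of 0.51, against 0.02. Tagln was then at 1.47, 3.14, 22.1 and 19.01 CPM, 6.06-fold, and Acta2 at 0.112, 1.41, 7.60 and 3.85, 2.74-fold. Both were still apart with the gate at 0 UMIs, at 4.96-fold and 4.19-fold. Tagln was concentrated in a share of the cells. A Tagln UMI was found in 14.1% and 13.0% of thinned cells of libraries 3 and 4, where an even spread would have given 70.6% and 38.8%. In libraries 1 and 2 the shares were 1.52% and 2.22%, against 8.04% and 6.93% for an even spread.

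Epithelial, YAP and adhesion genes followed the same lines. Of 14 counted keratin and adhesion genes, 5 parted the pairs (Krt8, Krt18, Krt19, Cldn7 and Dsp), against 3.1% of all counted genes. In gated cells 0 of 12 did, against 0.759% of all genes, a share at which a list of this size would hold few or none. Krt8 and Krt18 were left out there because they set the gate. Krt19 was at 5.18, 4.72, 30.5 and 22.5 CPM, 4.35-fold, but at 1.23, 3.18, 2.09 and 3.86 CPM in gated cells, where the pairs overlapped. Of 10 YAP targets, 5 parted the pairs (Ccn1, Ccn2, Ankrd1, Amotl2 and Crim1), and 1 of 8 in gated cells, Ccn1, against 3.1% and 0.759% of all genes. Ccn1, a secreted matricellular protein, was at 3.33, 5.04, 27.7 and 21.3 CPM, 4.22-fold, and 2.25-fold in gated cells. Itga3, the laminin-binding integrin alpha chain and the only 1 of 11 counted integrins to part the pairs (3.1% of all genes), was at 2.79, 2.75, 11.9 and 8.11 CPM, 2.91-fold, and 1.93-fold in gated cells.

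Matrix, endoderm and immune genes gave smaller counts, to be read against the 3.1% of all counted genes. The type IV collagen genes Col4a1 and Col4a2, transcribed from a shared start region in opposite directions, were 2.61-fold and 3.36-fold apart, and 1.87-fold and 2.21-fold in gated cells. With Dab2, an endocytic adaptor, they made up the 3 of 6 counted primitive endoderm genes that parted the pairs, and also the 2 of 12 basement membrane genes. Of 6 counted fibroblast genes 3 parted the pairs (Col1a1, Col3a1 and Twist1), at low levels. Col1a1 was at 0.198, 0.390, 3.90 and 0.942 CPM, and had too few counts in gated cells. Of 13 interferon and MHC class I genes 5 parted the pairs, among them B2m, H2-K1 and the immunoproteasome gene Psmb8, although the summed level of the list was lower in libraries 3 and 4 (1743 and 2005 CPM) than in 1 and 2 (2332 and 2619 CPM). The list's median log2 ratio was 0.70, so that median and sum differed in direction, and Ifitm1 and Ifitm2 were its most abundant members. H2-K1, the heavy chain of an MHC class I molecule, was at 9.96, 11.7, 23.0 and 29.0 CPM, 1.97-fold, and 1.60-fold in gated cells, where it was the only 1 of 12 to part the pairs. There B2m, Psmb8 and Psmb9 were 1.26-fold, 1.35-fold and 1.44-fold apart, and Isg15 had too few counts.

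Among the remaining leading genes, Thbs1, a matricellular thrombospondin, was at 1.07, 1.07, 19.3 and 5.25 CPM, 4.89-fold, and 2.67-fold in gated cells. Samd4, an RNA-binding translational repressor, was at 1.19, 1.26, 7.93 and 5.62 CPM, 4.47-fold, and 3.87-fold in gated cells. Phlda1 was at 4.36, 3.95, 37.2 and 18.1 CPM, 4.16-fold, and 1.90-fold in gated cells. Cxcl16, a chemokine, the secreted kinase gene Pkdcc and Clu, which encodes a secreted chaperone, had parting folds of 3.74, 3.74 and 3.26, and of 2.51, 2.39 and 1.87 in gated cells. Over the whole 380 the median of the highest library was 4.21 CPM, against 17.0 CPM for all counted genes.

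**Figure D3:**
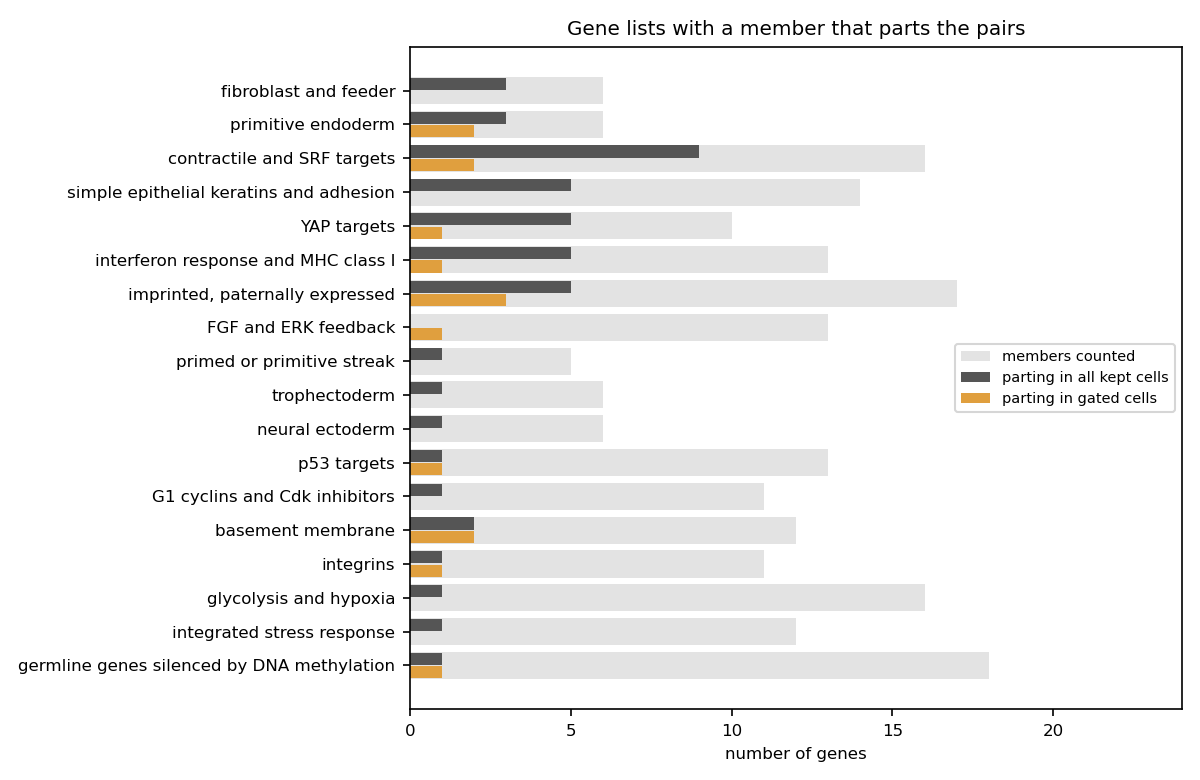
Number of genes (x axis) in each list with a member that parted the pairs, with grey bars for members counted in all kept cells, dark bars for those parting in all kept cells and orange bars for those parting in gated cells. Contractile genes have the longest dark bar, 9 of 16, and 2 genes in gated cells, and paternally expressed imprinted genes have 5 and 3.

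Within the keratin-positive cells themselves most of these genes did not part the libraries. There were 116, 111, 852 and 708 such cells, holding 3802058 and 3368088 UMIs in libraries 1 and 2, so that low genes had few counts there. With at least 50 counts in a library, 373 of the 380 genes were counted and 10 parted the pairs, against 50 of 11251 genes counted there (0.444%). The 380 were picked in all kept cells, which include these, so a share above that of all genes is partly built in. The pairs overlapped in 296 of the 373. Over all 11251 genes, 932 had any gap upward and 1097 downward, so most of those overlapped too. Of the 109 genes with at least 50 counts in each library, 2 parted the pairs (Ftl1 and Cnn1), which were the only 2 of 5962 genes to do so upward (0.0335%). Itga3 was at 52.6, 31.5, 55.1 and 34.7 CPM in these cells, and Krt19 at 172, 95.3, 193 and 154 CPM. For both genes the pairs overlapped in these cells, with library 2 lowest.

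The formative-positive cells, with at least 5 UMIs of Fgf5 and Pou3f1 and under 5 of the keratins, gave a similar picture from 91, 1223, 411 and 2166 cells. There 323 of the 380 genes were counted and 9 parted the pairs, against 18 of 12034 genes counted there (0.15%). The pairs overlapped in 243 of the 323. Over all 12034 genes, 767 had any gap upward and 1278 downward, so most of those overlapped too. With at least 50 counts in each library, 0 of 57 parted the pairs, as did 0 of 5410 genes counted there. Mest parted the pairs in both classes, on few counts in libraries 1 and 2 and passing the limit through libraries 3 and 4. Its level was 2.89, 0.891, 41.6 and 52.8 CPM in keratin-positive cells and at 3.33, 1.14, 55.7 and 41.0 CPM in formative-positive cells, which is 14.4-fold and 12.3-fold. Libraries 1 and 2 gave 11 and 3 Mest UMIs in keratin-positive cells, with intervals of 1.44 to 5.18 and 0.184 to 2.60 CPM. In formative-positive cells they gave 9 and 38, with intervals of 1.52 to 6.32 and 0.809 to 1.57 CPM. Zdbf2 did not, at 183, 179, 222 and 213 CPM in keratin-positive cells, 1.17-fold, and at 158, 92.1, 168 and 132 CPM in formative-positive cells. Of the genes higher in libraries 1 and 2, 2 of 30 counted parted the pairs in keratin-positive cells, against 0.0889% of all genes, and 9 of 50 in formative-positive cells, against 0.224%. With 50 counts in each library only 4 of the 76 were counted in either class, and 0 parted the pairs. With at least 50 counts in a library, gated cells still parted 152 of 362, against 1.52% of all genes, and 35 of 76, against 0.511%. The 380 and the 76 were picked in all kept cells, which include the cells of each class. A share above that of all genes is thus partly built in, most of all in gated cells, and is no independent support. A limit of 50 counts in any library also lets genes pass through the pair where they are high. The classes of cells and the limit of 50 counts in each library were chosen after the values in all kept cells were known.

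**Figure D4:**
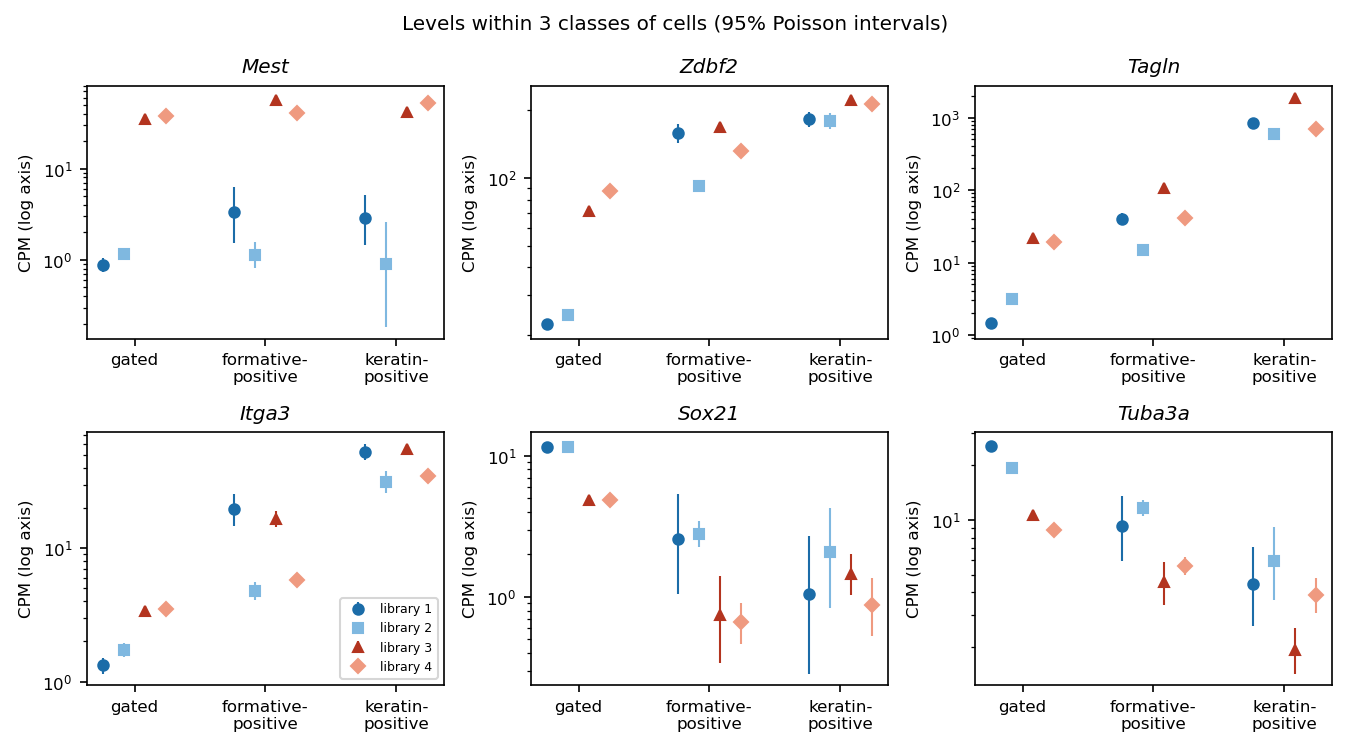
Levels in CPM (log axis) of 6 genes in gated, formative-positive and keratin-positive cells of the 4 libraries, with 95% Poisson intervals. Mest is apart between the pairs in all 3 classes, Zdbf2 and Tagln are at least 1.5-fold apart in gated cells only, and Sox21 and Tuba3a are highest in the gated cells of libraries 1 and 2.

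The genes higher in libraries 1 and 2 were fewer, had smaller parting folds and were less changed by the gate. At least 2-fold were 12 of the 76 genes and 159 of the 380, and at least 3-fold were 1 and 54. The highest fold was that of the noncoding transcript 1700108F19Rik, named after its values were seen, at 3.33, 3.597, 0.232 and 0.592 CPM, 5.63-fold. Hus1b, a paralogue of a checkpoint clamp subunit expressed in germ cells, was at 1.82, 0.859, 0.290 and 0.259 CPM, 2.96-fold. Hhip, a membrane antagonist of Hedgehog ligands, was at 2.28, 1.99, 0.800 and 0.523 CPM, 2.49-fold. In gated cells the parting folds of Hus1b and Hhip were 2.87 and 2.54.

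Sox21, Mitf and Prdm1 are transcription factors of this direction. Sox21 was at 11.2, 9.91, 4.06 and 3.005 CPM, 2.44-fold, and at 11.6, 11.5, 4.85 and 4.85 CPM in gated cells, 2.38-fold. Mitf, the melanocyte and lysosome regulator, was at 9.68, 5.605, 2.76 and 2.07 CPM, 2.03-fold in all kept and in gated cells. Prdm1, the repressor that founds the germ line, was at 19.3, 19.8, 10.0 and 10.5 CPM, 1.84-fold, but 1.34-fold in gated cells. Thinned cells with a UMI of Sox21 made up 5.36%, 4.63%, 1.89% and 1.501%, against 5.59%, 4.89%, 1.92% and 1.63% for an even spread. At so few UMIs per thinned cell, such shares cannot tell an even spread from transcripts held by part of the cells. In keratin-positive cells Sox21 was at 1.05, 2.08, 1.46 and 0.878 CPM, low in all 4 libraries, and in formative-positive cells at 2.59, 2.80, 0.743 and 0.660 CPM, on only 7, 93, 9 and 37 UMIs.

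The remaining leading genes of this direction had mixed functions. Tuba3a, an alpha tubulin of testis and the only 1 of 18 counted genes on the list of germline genes to part the pairs (0.62% of all genes), was at 24.7, 17.8, 8.97 and 7.18 CPM, 1.98-fold, and 1.80-fold in gated cells. By any gap 5 germline genes were higher in libraries 1 and 2, against 11.5% of all genes, and 3 in libraries 3 and 4, against 17.2%. Hydin, a protein of motile cilia, was at 2.91, 1.66, 0.690 and 0.609 CPM. Fxyd4, a regulator of the sodium pump, was at 7.87, 3.64, 1.77 and 0.689 CPM, so that library 1 was above 2 and library 3 above 4. Gsta3, a glutathione transferase, and Grin1, a glutamate receptor subunit, each had a parting fold of 1.98. The parting folds of Sapcd1, Arl14epl and Ptprcap were 2.25, 2.17 and 2.12. Gsta3 overlaps Gm28836 on the other strand, which also parted the pairs, and whether reads of these overlapping genes were shared was not tested. Pfkp, a glycolytic phosphofructokinase, was the only 1 of 16 glycolysis genes to part the pairs (0.62% of all genes), at 135, 139, 66.0 and 76.6 CPM, 1.76-fold, and 1.34-fold in gated cells.

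Many gene lists held no member that parted the pairs in all kept cells, which at 3.72% of all counted genes says little about lists of these sizes. Of 17 SR proteins and speckle scaffolds and 14 U2 snRNP genes, 0 parted the pairs, with medians of 0.02 and 0.04 on the log2 scale. Of 13 counted naive genes 0 parted the pairs, but the median log2 ratio was -0.77, and -0.45 in gated cells, and 7 were higher in libraries 1 and 2 by any gap, against 11.5% of all counted genes. Nr5a2 came nearest, at 24.7, 30.8, 17.2 and 15.1 CPM, 1.44-fold. Of 12 formative genes 0 parted the pairs and 0 kept any order, although their median was 0.47, since libraries 2 and 4 held more of them than 1 and 3. The summed levels of the list were 371, 997, 571 and 1383 CPM, so library 3 also stood above 1 and library 4 above 2. Ribosomal, S-phase and G2/M genes also gave 0, of 18, 14 and 14. Wnt3, Gata3, Nes, Pmaip1, Atf3 and Cdkn2b were each the only member of a list to part the pairs, all higher in libraries 3 and 4. Their lists were primitive streak, trophectoderm, neural ectoderm, p53, stress response and G1 genes, with 5, 6, 6, 13, 12 and 11 members counted. The share over all counted genes was 3.1%, and in gated cells only Pmaip1 of these genes still parted the pairs. The summed level of the trophectoderm list went the other way from Gata3, at 65.6, 58.8, 55.4 and 38.6 CPM. That list's median log2 ratio was 0.26, and -0.48 in gated cells. The neural ectoderm list summed to 83.5, 101, 103 and 138 CPM, and the sums of the other lists overlapped between the pairs. Of 20 counted genes that the study named from its bulk comparison, Mest, Itga3 and Plaur were higher in libraries 3 and 4 and Nrp2 was higher in libraries 1 and 2, against 3.1% and 0.62% of all genes. In gated cells Mest and Itga3 still parted the pairs, while Plaur overlapped and Nrp2 was 1.29-fold apart.

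**Figure D5:**
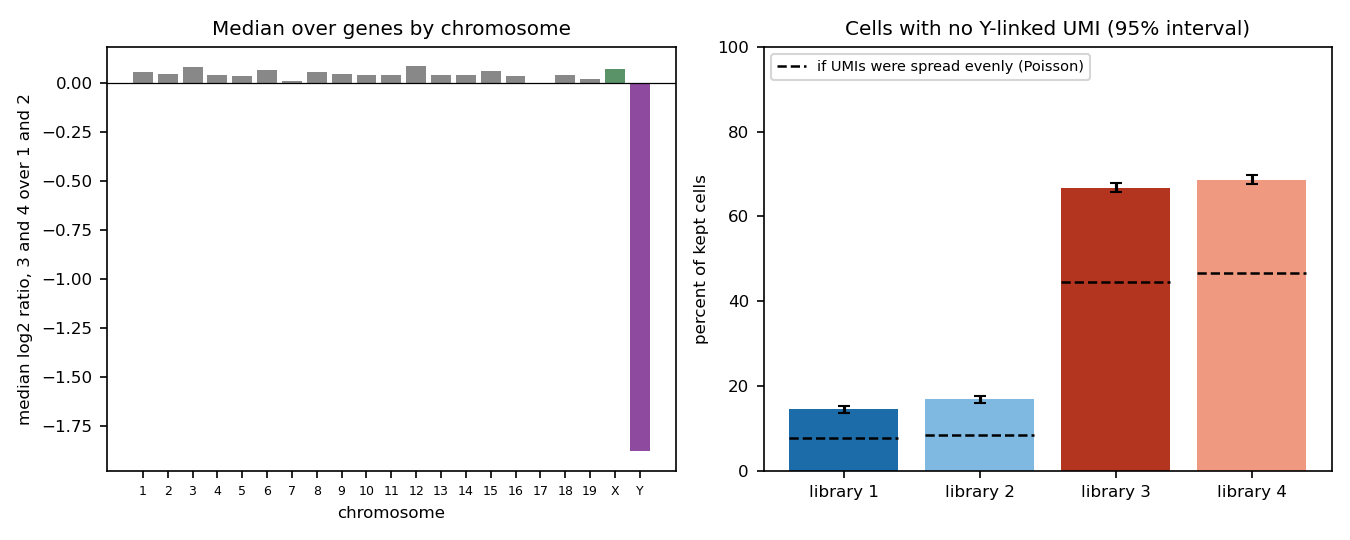
Left, median over counted genes of the log2 ratio of libraries 3 and 4 over 1 and 2 for each chromosome. Right, percent of kept cells with no UMI of 4 Y-linked genes, with 95% Clopper-Pearson intervals and dashed lines for an even spread. Autosomes and X lie between 0.003 and 0.086, Y at -1.88, and libraries 3 and 4 have 66.7% and 68.7% of cells without a Y-linked UMI.

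No autosome stood apart as a whole, and only the Y chromosome did. Medians over autosomal genes were 0.003 to 0.086 on the log2 scale and that of the X chromosome was 0.072. The Y chromosome, outside the rule for members, had a median of -1.88 over 6 counted genes, 5 of which parted the pairs. Eif2s3y, Ddx3y, Uty and Kdm5d together were at 146, 121, 39.7 and 34.7 CPM. Cells without a UMI of these 4 genes made up 14.4%, 16.8%, 66.7% and 68.7%, and an even spread would have given 7.67%, 8.48%, 44.6% and 46.7%. After thinning, 49.4%, 43.0%, 14.8% and 13.3% of cells held such a UMI. In the kept cells with at least 1 such UMI before thinning, the level was 167, 142, 108 and 101 CPM. Picking cells by a seen UMI raises this level, and more so where the level is low.

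Inside a library, Mest and Zdbf2 differed little between cells with and without Y-linked UMIs compared with their difference between the pairs. Among gated cells of library 3, Mest was at 34.8 CPM (33.5 to 36.04) in 4454 cells without a Y-linked UMI and at 35.7 CPM (33.6 to 37.8) in 1418 cells with at least 2. In library 4 the levels were 36.5 CPM (35.1 to 38.1) and 41.7 CPM (39.0 to 44.5), with intervals that did not overlap. Zdbf2 was at 69.7 CPM (67.9 to 71.5) and 74.8 CPM (71.8 to 77.9) in library 3, again without overlap, and at 87.6 and 89.0 CPM in library 4. Sox21 was at 5.47 CPM (4.99 to 5.98) without and 3.96 CPM (3.30 to 4.71) with Y-linked UMIs in library 3, but at 4.89 and 5.27 CPM in library 4, where the intervals overlapped. These classes were chosen after seeing the data. Cells with at least 2 Y-linked UMIs were also deeper in every library. Their median UMIs were 20311 against 18274 in library 3 and 21543 against 19654 in library 4. The intervals do not cover the spread between cells, so the lack of overlap is no test. In libraries 1 and 2 Mest stayed at 0.704 to 1.21 CPM in both classes. In library 1 Tagln was higher without a Y-linked UMI, at 4.17 against 1.07 CPM, whereas in library 2 it was lower, at 2.25 against 3.51 CPM. These levels rest on 83 and 128 Tagln UMIs in library 1 and on 54 and 407 in library 2. Because Tagln was concentrated in a share of the cells, a few cells can set such differences.

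The parting genes were also placed along the chromosomes, with no test. Of the 380 genes, 50 (13.2%) were next to another counted gene of the 380, against 5.86% of the other counted genes, and of the 76 it was 4 (5.26%), against 1.199%. Both pairs of the 76, Gsta3 with Gm28836 and 1700097N02Rik with Dnah8, are overlapping genes on opposite strands, and sharing of reads was not tested. The 380 formed 26 neighbouring pairs, among them Col4a1 and Col4a2, Krt8 and Krt18, Gbp2b and Gbp2, and Pdlim2 and Sorbs3.

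Just inside the 1.5-fold limit lay Bhlhe41, at 0.480, 0.734, 1.10 and 2.28 CPM, and Serp2 for libraries 3 and 4, and Defb42 and Ndrg1 for libraries 1 and 2. Just outside lay Sel1l3 and Arhgdig, and Itga9 and Mov10. Arhgdig was at 12.5, 16.9, 25.3 and 30.8 CPM, and Mov10 at 75.6, 78.1, 50.5 and 43.4 CPM. For 119 of the 380 genes the fold within a pair reached the parting fold, as it did for 10 of the 76. Among the 380, library 3 stood above library 4 in 248 and library 2 above library 1 in 252.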

How the data were processed

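Single-cell 3′ libraries (10x Genomics) of the 4 samples were aligned and counted by the authors with Cell Ranger 6.1.2 against mm10, and the deposited matrix holds whole-number UMI counts per gene and cell, aggregated over libraries. Aggregation by Cell Ranger can subsample reads to equal depth, which narrows depth differences. The barcode suffix gave the library number. The planned comparison of Srrm2 hKO with WT was not made, because library numbers could not be tied to the labels. The deposited counts were summed per library, in all kept cells and in gated cells, and divided by the summed UMIs (CPM), with Python 3.11.15, numpy 2.4.6, scipy 1.17.1 and pandas 2.3.3. TMM factors came from edgeR 4.0.16 in R 4.3.3, as an alternative scaling only. Gene positions were taken from GENCODE M21 (GRCm38). No doublet caller was used, and cells above 2 times the library's median UMIs were left out as an alternative. The members and lists were chosen with earlier results of these data known. Named genes were the 12 with the largest parting fold in each direction among those also parting in gated cells, the parting genes of the lists, the genes nearest to the limit and those lost in gated cells. Srrm2, Pou5f1, Sox2, Nanog, Klf4 and H19 were named whatever their values, and symbols of Gm plus digits or ending in Rik were otherwise only counted. Other genes that did not part the pairs, Zdbf2, 1700108F19Rik and the neighbouring pairs were named after their values were seen. The calculation was tested on simulated counts with known folds and counting error only. That checks the arithmetic and not how often genes part through differences between cultures.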

Additional observations from a re-analysis of the deposited data

How the results depend on the processing

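No paired analysis was possible because the library numbers carry no replicate or group label and no test was made. The counts of genes higher in libraries 3 and 4 and in libraries 1 and 2 were 380 and 76 in all kept cells (3.1% and 0.62% of 12250). They were 641 and 119 with at least 50 counts in a library, 173 and 47 with at least 200 in each, 997 and 251 with no minimum, 159 and 12 at 2-fold, 144 and 37 in cells thinned to 5000 UMIs, and 88 and 40 in gated cells. Apart from the 2-fold limit, these settings change how many genes are counted, so the counts cannot be compared as shares. Thinning kept the limit of 200 counts on fewer UMIs, so fewer genes could reach it. Leaving out 1 library gave 560 to 1219 and 182 to 375, since fewer libraries had to be parted. In gated cells the 88 and 40 were 0.759% and 0.345% of 11591 genes. With at least 50 counts in a library they became 214 and 72 (1.52% and 0.511% of 14082). With the gate at 0 UMIs they became 26 and 30 (0.241% and 0.278% of 10789). At 2-fold they were 29 and 10, and without 1 library 177 to 451 and 139 to 282. Size factors gave 336 and 101, TMM 342 and 97, and leaving out cells above 2 times the median UMI count 315 and 64, all within 1.5 times. Leaving out barcodes shared between libraries, an alternative chosen after seeing the data, gave 382 and 73. Of 71 named parting genes, 64 stayed at least 1.5-fold apart with TMM factors, 60 after thinning and 40 in gated cells, and 0 reversed in these settings. With 1 library per sample, the spread between cultures was not measured.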
